A study of Mus musculus with 4 samples.

Results

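The adult globins and the enzymes of heme synthesis were examined in the liver RNA-Seq data of mice fed diets low or adequate in Se. They are 9 genes chosen by symbol, with earlier results of these data known. The red cell genes are Beta-s, Hbb-b1 and Hbb-b2 (adult beta-globins), Hba-a1 and Hba-a2 (adult alpha-globins) and Alas2, and the heme synthesis enzymes that hepatocytes express are Alas1, Urod and Fech. Of the 9 symbols, 5 were found among the 7000 genes listed by the authors: Beta-s, Alas2, Alas1, Urod and Fech. Hba-a1, Hba-a2, Hbb-b1 and Hbb-b2 were not listed, so no level is given for them. The mice were male FVB/N mice, placed after weaning for 6 weeks on a Se-deficient base diet that was supplemented with 0 ppm Se (0 Se, 2 mice) or with 0.1 ppm Se as sodium selenite (0.1 Se, 2 mice). All 4 libraries were made from whole liver RNA after removal of ribosomal RNA, and the livers had been washed in buffer and not, as far as the methods say, flushed through their vessels.

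Hemoglobin is built from alpha-globin and beta-globin chains, each of which holds a heme. Heme is made in a chain of enzymatic steps that starts and ends in the mitochondrion. The first step, the joining of glycine and succinyl-CoA by 5-aminolevulinate synthase, is carried out by Alas2 in developing red cells and by Alas1 in other tissues. Urod, uroporphyrinogen decarboxylase, acts in the cytosol, and Fech, ferrochelatase, inserts iron in the final step. Both of these serve red cells and hepatocytes alike. In the liver, much of the heme goes into cytochrome P450 enzymes, and young red cells in the blood still carry globin mRNA.

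The levels are the authors' means over all 4 libraries, 1 value for each gene, in CPM, counts scaled to a common library size. They were divided here by the mRNA length to give CPM per kilobase, the scale on which genes are compared. A mean over both diets has no replicate spread here and no value for a single mouse or diet, so no difference in level was tested and the diets were not compared. The depth of the libraries is also unknown, and that limits the precision of each value to an extent that cannot be given. The means of the listed genes add up to 647615 CPM, or 64.8% of the total to which CPM is scaled. This leaves 352385 CPM for genes that are not listed. Which reads that total includes is not known, so the share is approximate. The list follows the order of the p-values of the authors' comparison of the diets, not the order of abundance. A gene can therefore be off the list at any level, as was Alb, which encodes albumin. The authors also tested only genes above 1 CPM in most of the samples. A gene off the list may thus also have been below that floor.

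The adult globin genes are near-identical copies, and this bears on every globin value because the authors counted only reads that aligned to a single mRNA. The stretches shown here hold the base at which the coding sequences of each pair differ, in capitals, and were read 5′ to 3′ from the reference genome NCBIM37 (mm9). The beta-globin stretches lie in exon 3, on the minus strand, at chr7:110975192-110975221 for Beta-s and at chr7:110961183-110961212 for the second adult beta-globin. The alpha-globin stretches lie in exon 3, on the plus strand, at chr11:32184328-32184357 for Hba-a1 and at chr11:32197145-32197174 for Hba-a2.
Beta-s: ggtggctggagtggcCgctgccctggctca
second adult beta-globin: ggtggctggagtggcTgctgccctggctca
Hba-a1: gcatgcctctctggaCaaattccttgcctc
Hba-a2: gcatgcctctctggaTaaattccttgcctc

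The beta-globin pair differed at 1 of 444 coding bases (99.8% identical), and the alpha-globin pair differed at 1 of 429 (99.8% identical). Both differences fell on the third base of a codon. Beta-s is a synonym of the RefSeq gene Hbb-bs, whose promoter sequence had 1 match on chromosome 7 of NCBIM37. The gene annotated there in GENCODE vM1 is named Hbb-b1, from 110975048 to 110976610, with 3 exons. The other adult beta-globin of this genome, RefSeq Hbb-bt, is named Hbb-b2 in that annotation and lies 12537 bases away, from 110961038 to 110962510. Names of the beta-globins differ between annotations, and the symbols Hbb-b1 and Hbb-b2 of the member list were not assigned to either locus. Hba-a1 spans 32183511 to 32184465 of chromosome 11, and Hba-a2 spans 32196489 to 32197301, with 12023 bases between them.

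With reads of 50 bases and up to 2 mismatches, 308 of the 729 read positions of the annotated Beta-s mRNA aligned to no other of the 22611 annotated mRNAs, which is 42.2%. None of them lay wholly in the coding part, where 0 of 395 positions were unique. The second adult beta-globin had 233 unique positions of 654 (35.6%), and again 0 of 395 within the coding part. For the alpha-globins, 161 of 650 positions were unique in Hba-a1 (24.8%) and 16 of 505 in Hba-a2 (3.17%), with 0 of 380 in the coding part of each. The annotated mRNAs of Hba-a1, Beta-s and the second adult beta-globin begin upstream of the RefSeq start sites, and the unique share depends on that start. The annotated Beta-s mRNA has 778 bases, and 628 from the RefSeq start. The length listed by the authors, 639 bases, is closer to the latter. Counted from the RefSeq start, 0 of 489 positions of Hba-a1 and 158 of 579 positions of Beta-s (27.3%) were unique. For the second adult beta-globin, 160 of 581 positions (27.5%) were unique from that start. If a read was instead taken as unique when it had no exact copy elsewhere, 28 coding positions of Beta-s and 49 coding positions of each alpha-globin became unique. By either count, most of the positions that identify the Beta-s mRNA touch its untranslated ends. The reference carries the sequence of C57BL/6J, and the globin sequence of the FVB/N mice themselves was not analysed here.

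**Figure D1:**
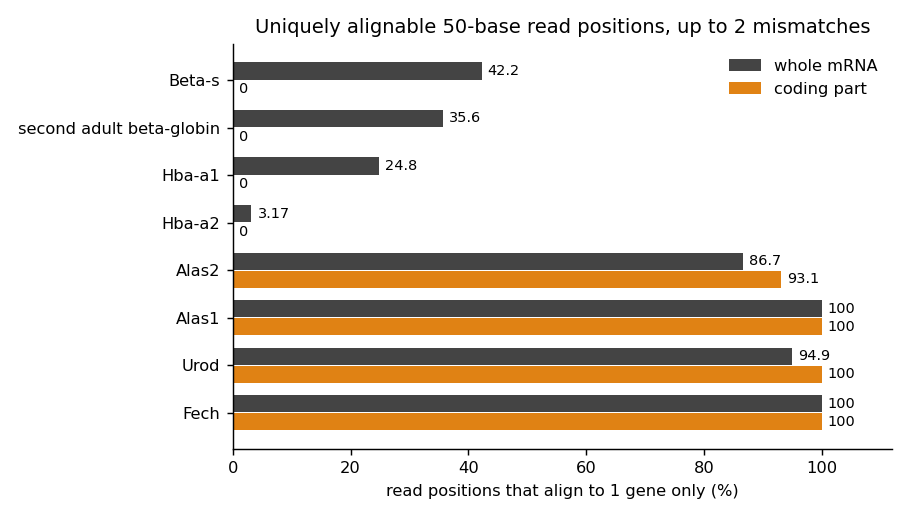
Share of 50-base read positions, in percent, that align to 1 gene only, for the whole annotated mRNA (dark bars) and its coding part (orange bars). The 4 adult globin mRNAs range from 3.17% to 42.2% with 0% in the coding part, whereas the 4 enzyme mRNAs range from 86.7% to 100%. Counted from the RefSeq start, which is not drawn, the 4 globin mRNAs range from 0% to 27.5%.

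The enzymes did not share this property. All 2822 read positions of Alas1 and all 2852 of Fech were unique, and 1367 of 1440 were unique in Urod (94.9%). Alas2 was unique at 1723 of 1988 positions (86.7%). Its other 265 positions matched mRNA of Apex2, which encodes a DNA repair nuclease and whose annotated span, on the opposite strand, contains the whole of Alas2. The libraries kept strand, but whether the authors' counting used strand is not given in the sources used here. Reads at those positions may thus have been lost, or may come from Apex2.

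Beta-s was the only globin among the members with a level. Its mean was 115 CPM, or 179 CPM per kilobase of its listed 639 bases, which ranked 301 among the 7000 genes. On the same scale the level of Beta-s was 49.1 times below that of Trf (transferrin, 8801 CPM per kilobase). It was 42.5 times below that of Apoa1 (apolipoprotein A-I, 7619 CPM per kilobase). Both proteins are secreted by hepatocytes. Per unique position the gaps were smaller, 25.3-fold to Trf and 20.5-fold to Apoa1. Per kilobase of listed length, Beta-s was 110 times above Cygb, at 1.63 CPM per kilobase. Cygb, cytoglobin, is a globin of stellate cells and was the only other globin listed. This ratio was 30.2 by mean CPM and 208 per unique position. The mean of Cygb was only 3.79 CPM, so the ratio is imprecise. The embryonic globins Hbb-bh1, Hbb-y and Hba-x, the theta-like globins Hbq1a and Hbq1b, myoglobin (Mb) and neuroglobin (Ngb) were not listed. Divided by the unique read positions in place of the listed length, Beta-s reached 372 CPM per kilobase, and 725 when these were counted from the RefSeq start. Divided by the longer annotated length it was 147. The level of this globin thus spans several fold, depending on the length used.

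Alas2, the red cell enzyme, had a mean of 37.8 CPM, or 19.1 CPM per kilobase of 1979 bases. This was the lowest level of the listed members, at rank 1677. Beta-s exceeded it 9.38-fold per kilobase, 3.03-fold by mean CPM and 16.9-fold per unique position. The last ratio includes Beta-s positions upstream of its RefSeq start. From that start Beta-s was at 725 CPM per kilobase, against 21.9 for Alas2 over its unique positions. Alas2 lies on chromosome X from 146981918 to 147005181 and its annotated mRNA has 11 exons. Translation of this mRNA is controlled by iron through an iron-responsive element, a hairpin in the 5′ UTR that binds iron regulatory proteins, and this element is printed to show what sets Alas2 apart from the housekeeping enzyme. It lies in exon 1 at chrX:146982001-146982028 on the plus strand of NCBIM37, and capitals mark the hairpin loop.
Alas2: ttggttcgtcctCAGTGCagggcaacag

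The motif searched, on the mRNA strand only, was C, any 5 bases, the loop CAGTG with 1 more base other than G, and 5 bases that pair with the 5 before the loop, G with T allowed. It was present in 15 of 19576 annotated 5′ UTRs, 1 for each gene (0.0766%). Fth1 and Ftl1 (ferritin chains) and Slc40a1 (ferroportin) were among these 15. No annotated 5′ UTR of Alas1, Urod or Fech held it. This is a description of sequence, and the mRNA levels measured here do not report on translation.

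Alas1 had the highest level of the listed members. Its mean was 656 CPM, or 243 CPM per kilobase of 2702 bases, at rank 222 of 7000 genes. It was 12.7 times the level of Alas2 per kilobase. Alas1 lies on chromosome 9 from 106135786 to 106150457. Relative to the globin, its place depended on the length used: Alas1 was 1.35 times the level of Beta-s per kilobase of listed length, but 0.625 times per unique position. By mean CPM Alas1 was 5.73 times Beta-s, whereas from the RefSeq start Beta-s was higher still, at 725 CPM per kilobase. Alas1 over its unique positions was at 233. The listed length of Beta-s is closer to its length from the RefSeq start than to its annotated length. The beta-globin mRNAs in the authors' reference are not known here. Which of the pair was the more abundant mRNA is therefore not settled by these data.

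Urod and Fech stood close together, and both were below Alas1 and above Alas2. Urod had a mean of 73.4 CPM, or 61.2 CPM per kilobase of 1199 bases (rank 672), and lies on chromosome 4 from 116662570 to 116667018. Fech had a mean of 156 CPM, or 53.9 CPM per kilobase of 2901 bases (rank 744), and lies on chromosome 18 from 64616204 to 64648720. Alas1 was 3.97 times the level of Urod and 4.50 times that of Fech. The ratio of Urod to Fech was 1.13 per kilobase of listed length and 0.979 per unique position, so their order was not stable.

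**Figure D2:**
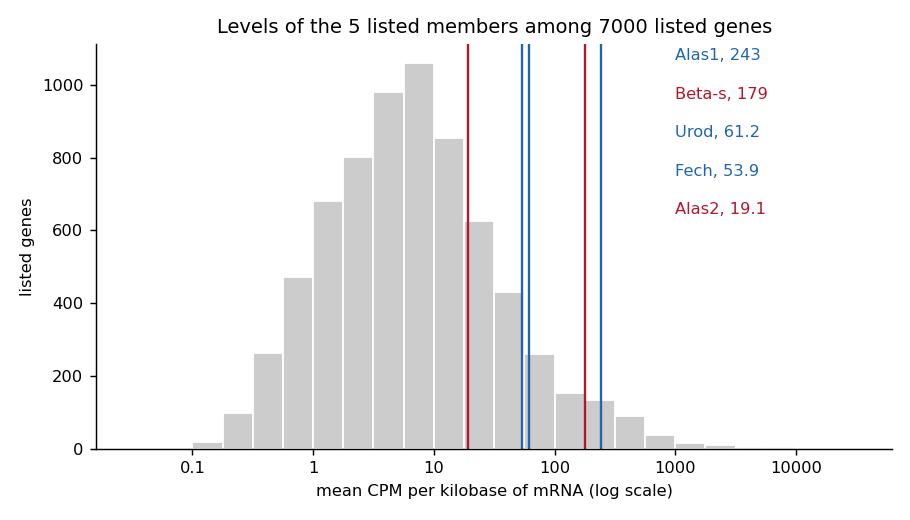
Histogram of the mean level of the 7000 listed genes in CPM per kilobase (log axis), with vertical lines at the 5 listed members, red for red cell genes and blue for heme synthesis enzymes. All 5 lines lie to the right of the peak of the histogram, from 19.1 for Alas2 to 243 for Alas1.

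All 5 listed members were above the median of the listed genes, 6.19 CPM per kilobase. Summed over the listed members, the red cell genes Beta-s and Alas2 came to 0.554 times the heme synthesis enzymes Alas1, Urod and Fech per kilobase. This ratio was 1.15 per unique position, so the direction of the contrast was not stable. It was 1.62 on the listed lengths when the medians of the members were compared in place of the sums. That sets the midpoint of the 2 red cell genes (99.2) against the middle of the 3 enzymes (Urod, 61.2). The high level of Alas1 then has no weight. The alpha-globins and the other beta-globin entries are not in the sum, which is then incomplete on the red cell side.

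**Figure D3:**
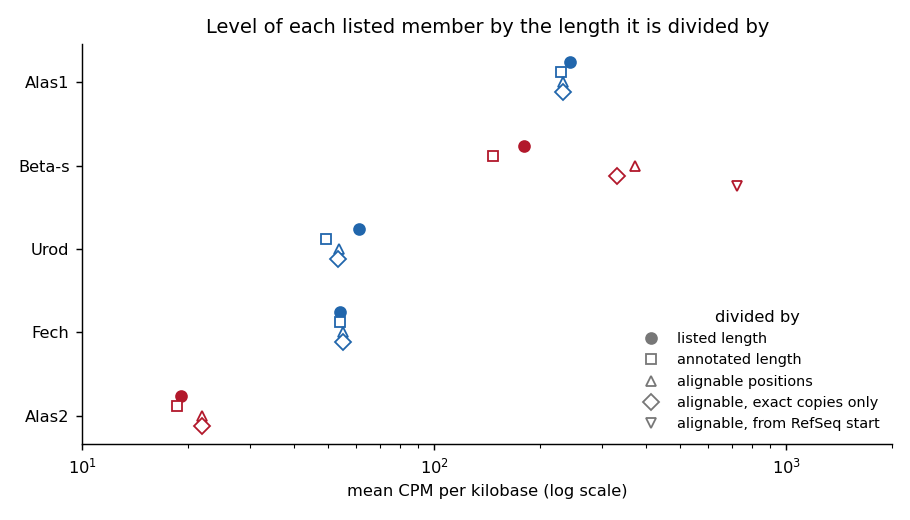
Mean level of each listed member in CPM per kilobase (log axis) by the length its CPM was divided by, with red symbols for red cell genes and blue for heme synthesis enzymes. Beta-s spreads from 147 to 725, while each of the 4 enzymes keeps within a narrow range, such as 49.3 to 61.2 for Urod.

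The other enzymes of the pathway place the members in the order of the chain, and of 7 enzymes compared 6 were listed. After Alas1 comes Alad, which was not listed. Uros, uroporphyrinogen III synthase, had 8.34 CPM per kilobase. Urod followed at 61.2. Cpox, coproporphyrinogen oxidase, was the second highest at 80.9, and Ppox, protoporphyrinogen oxidase, was the lowest at 6.58. Fech, at 53.9, closes the chain. The first enzyme thus had the highest mRNA level of the 6, and Alas1 exceeded Ppox 36.9-fold. Alas2 lay between Fech and Uros.

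**Figure D4:**
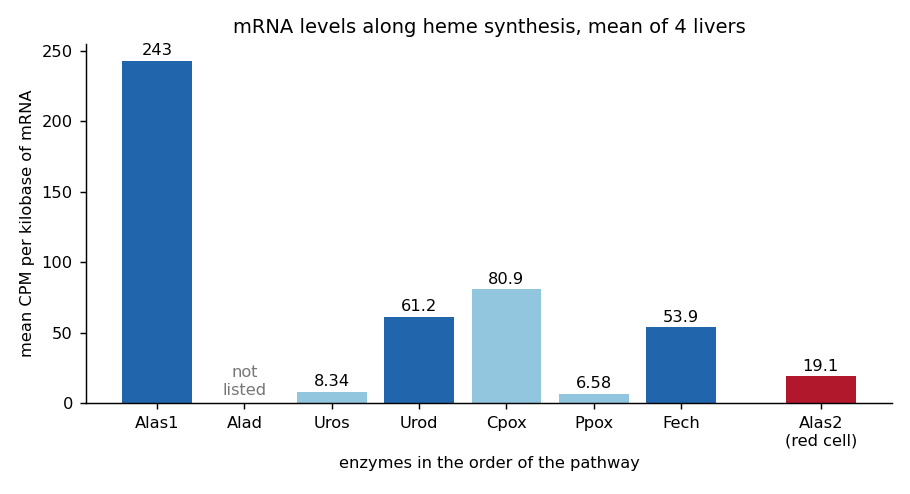
Bars give the mean level in CPM per kilobase of 7 enzymes of heme synthesis in the order of the pathway, members in dark blue and other enzymes in light blue, with Alas2 of red cells in red at the right. Alas1 stands highest at 243, Uros and Ppox are lowest at 8.34 and 6.58, and Alad has no bar because it was not listed.

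Per kilobase of listed length, mitochondrial transporters, porphyrin carriers and proteases tied to heme synthesis were below Alas1, Urod and Fech where they were listed. Of 8 such genes 6 were listed, from 5.43 CPM per kilobase for Slc25a37 (mitoferrin-1, an iron importer prominent in red cell precursors) to 47.5 for Lonp1, a protease that degrades Alas1. By mean CPM, however, Lonp1 (141 CPM) was above Urod (73.4 CPM). Slc25a38, a glycine carrier, had 11.1, and Tspo had 31.7. Abcb6 had 24.1 and Abcb10, also known from red cell precursors, had 13.0. Slc25a39 and Clpx were not listed.

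Genes for the handling of heme spanned a wider range than those for its synthesis, and 8 of 11 were listed. Hpx, hemopexin, which binds free heme in plasma, had 2711 CPM per kilobase and Hp, haptoglobin, which binds free hemoglobin, had 1314. These were 11.2 and 5.41 times the level of Alas1. Pgrmc1, a heme-binding membrane protein, had 951 CPM per kilobase, and the scavenger receptor Lrp1 had 56.9. The heme oxygenases that open the heme ring were much lower, with 17.6 for Hmox1 and 24.3 for Hmox2, and biliverdin reductase Blvra had 11.1. Cd163, the macrophage receptor for hemoglobin bound to haptoglobin, was the lowest at 1.56. Blvrb, Slc48a1 and Flvcr1 were not listed. Among regulators of Alas1, 4 of 6 were listed. The nuclear receptors Nr1i3 (47.3 CPM per kilobase) and Nr1i2 (28.8) were above the median of the listed genes, Foxo1 (3.88) and Nrf1 (2.23) were below it, and Ppargc1a and Hnf4a were not listed.

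The tissue label, liver, was set against markers of hepatocytes, red cells and other blood cells. Of 10 hepatocyte markers 6 were listed, at 595 to 8801 CPM per kilobase, above each listed member on the scale of listed length. Counted from the RefSeq start, Beta-s at 725 was above the lowest of them. Of 23 red cell genes given by 26 symbols, 5 were listed: Ube2l6 (90.4 CPM per kilobase), Bnip3l (35.5), Bpgm (10.4), Tfrc (8.01) and Tal1 (0.262). Each of these is also used by other cell types. Genes that define the red cell lineage, among them Slc4a1, Klf1, Gata1, Ahsp and Hemgn, were not listed, so the data give no level for them and the red cell origin of the Beta-s and Alas2 mRNAs was not tested. Of the markers of other blood cells, those listed were below the median of the listed genes, and the others have no level here. Of 5 neutrophil markers S100a8 and S100a9 were listed, at 2.48 and 3.41 CPM per kilobase, of 5 platelet markers Ppbp at 1.28, and of 4 lymphocyte markers Ptprc at 3.93. Beta-s was 52.6 times the level of S100a9, but S100a9 had a mean of only 1.66 CPM. S100a8 (0.970 CPM) and Ppbp (1.38 CPM) were also near the bottom of the listed genes by mean CPM, so comparisons with these markers are imprecise. In whole tissue, more blood in the organ and more globin mRNA in each blood cell cannot be told apart.

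**Figure D5:**
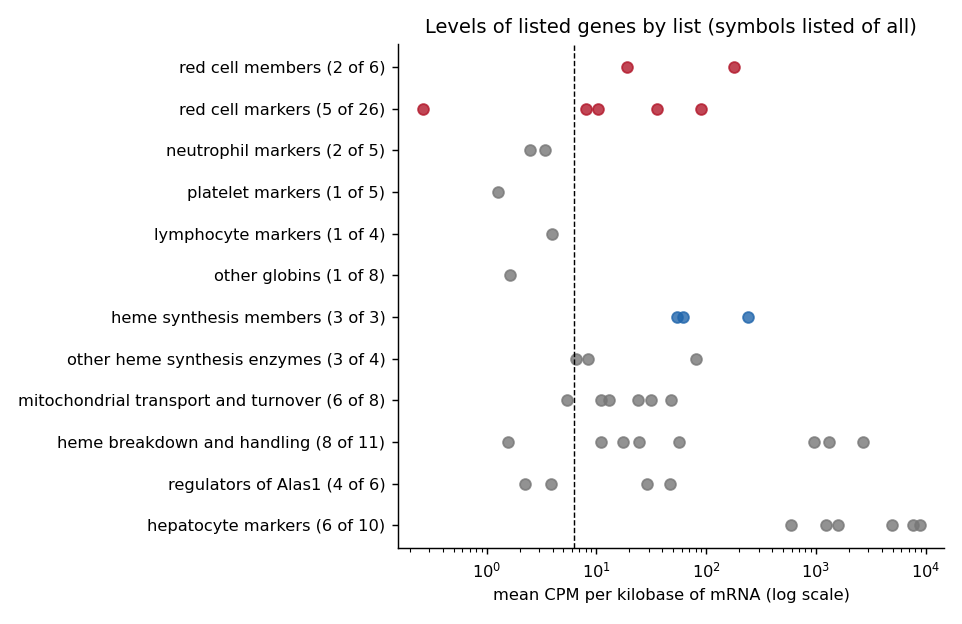
Each point is a listed gene at its mean level in CPM per kilobase (log axis), by list, with the number of symbols listed of all symbols in brackets and a dashed line at the median of the 7000 listed genes, 6.19. The hepatocyte markers lie highest, from 595 to 8801, and the 4 listed markers of neutrophils, platelets and lymphocytes lie left of the line.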

How the data were processed

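Liver RNA of 2 mice per diet was sequenced with 50-base reads. Adapters and ribosomal RNA reads were removed by the authors, who then used Bowtie (2 mismatches allowed, unique alignments kept) against the longest RefSeq mRNA of each gene in mm9 and ran edgeR between the diets. The deposited table lists 7000 genes, each with an mRNA length and an average CPM across all 4 libraries on the log2 scale, which edgeR gave the authors. Its other columns hold the fold changes, p-values and FDR of the authors' comparison. These are findings of the study and are not used, except that the rows were seen to be in order of the deposited p-value. The table has 0 columns for single mice, so no count model, test, interval or omission of a mouse was possible, and depth per sample is unknown.

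The mean CPM was taken as 2 to the power of the deposited value and divided by the length in kilobases. Read positions were checked for a second place on either strand of 22611 mRNAs of GENCODE vM1 (NCBIM37, the assembly of mm9), 1 for each gene, which can include predicted genes that RefSeq lacks. Whether the authors' RefSeq set held further beta-globin mRNAs is not known, and any such mRNA could lower the unique share of Beta-s. For each gene examined, the transcript nearest to the listed length was used, and for unlisted genes the longest. The method was tested on simulated sequences with planted copies. RefSeq promoters of GRCm38.p6 served to place the globin start sites on NCBIM37 by exact match. Genes were named by a rule: all members, then listed genes of lists for heme synthesis, transport, breakdown, other globins, Alas1 regulators and cell types. Some genes of these lists are not reported here and are left out of their counts. Members and lists were chosen with earlier results of these data known. Python 3.11.15, numpy 2.4.6, pandas 2.3.3 and matplotlib 3.10.9 were used.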

Additional observations from a re-analysis of the deposited data

How the results depend on the processing

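The levels are pooled means with no replicate spread, so a value is taken as moved when its first 3 digits changed. Of 16 alternative values for the levels of the 5 listed members, 15 moved. Dividing by another length changes these digits in nearly every case, so the count does not measure how far a level moved. Beta-s had the widest range, from 147 to 725. Divided by uniquely alignable positions, the levels in CPM per kilobase were 372 for Beta-s, 21.9 for Alas2, 233 for Alas1, 53.7 for Urod and 54.9 for Fech. Divided by the annotated transcript length they were 147, 18.6, 229 and 49.3 for the first 4 genes in that order, and Fech kept its value. Counting only exact copies as a second place, an alternative chosen after seeing the data, gave 329, 21.9, 233, 53.1 and 54.9. Starting Beta-s at its RefSeq start, also chosen after seeing the data, gave 725. The ratio of red cell genes to heme synthesis enzymes was 1.15 with uniquely alignable positions, 0.172 with mean CPM, 1.62 with the median of the members, 1.03 with exact copies only and 2.19 from the RefSeq start, against 0.554. By level the members lay between percentiles 76.1 and 96.8 of the listed genes, between 68.8 and 98.2 when ranked by mean CPM, and between 63.8 and 95.2 among genes over 10 CPM. Leaving out a mouse could not be run, as the table has no column for single mice. No paired analysis was possible because no value belongs to a single mouse.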
